A study of Bos taurus with 14 samples.

Results

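Mitochondrial ribosomal proteins were represented on a custom bovine array by 45 probes, 1 for each of 45 genes, out of 15011 distinct non-control probe sequences. A probe was taken when its gene name, or the gene symbol in brackets in its description, was MRPL or MRPS followed by a number. The gene name supplied 25 of the symbols and the description 20. By their human counterparts, 30 of the genes encode proteins of the large mitochondrial ribosomal subunit and 14 proteins of the small subunit. MRPS36, once counted as a small-subunit protein, is now known as a component of the 2-oxoglutarate dehydrogenase complex. The symbol matched the name in the RefSeq gene table of assembly ARS-UCD2.0 for 44 genes, and the probe described as similar to human MRPL17 belongs to LOC506989, a separate entry of that table.

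Mitochondria keep a small genome whose protein-coding genes specify core subunits of the respiratory chain and ATP synthase. A dedicated ribosome translates these messages, and all of its proteins are encoded in the nucleus, made in the cytosol and imported. Many of them descend from bacterial ribosomal proteins, whereas others were added in the course of mitochondrial evolution. Liver parenchyma is rich in mitochondria, and mature neutrophils rely largely on glycolysis and have few respiring mitochondria.

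The samples came from Holstein cattle, heifers or steers, given β-cryptoxanthin, a provitamin A carotenoid, by mouth at 0.2 mg per kg body weight on day 0. The groups were liver on day 7 and liver on day 0 of 3 cattle (animals 58, 61 and 66), and peripheral blood neutrophils on day 7 and on day 0 of 4 other cattle (animals 25, 26, 32 and 34). All 7 animals received the agent, so a change between the days cannot be told apart from other changes over the same interval. The sources used here give neither the age of the cattle, nor the numbers of heifers and steers, nor how liver was taken. All 14 samples were hybridised singly with Cy3. All liver samples lay on slide 1 and all neutrophil samples on slide 2, with the day 0 arrays in one row of the slide and the day 7 arrays in the other, so tissue and slide, and day and place on the slide, cannot be told apart.

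The share of spots well above background was 62.7% to 75.1% in liver on day 7, 74.7% to 76.7% in liver on day 0, 57.1% to 69.0% in neutrophils on day 7 and 63.5% to 71.6% in neutrophils on day 0. Animal 34 stood apart on its day 7 array, with the lowest share and a median processed signal of 48.2 against 100.2 to 162.9 on the other day 7 neutrophil arrays. All 7 hepatocyte markers were well above background on every liver array and all 7 neutrophil markers on every neutrophil array. The neutrophil samples also carried 6 of 7 T and NK cell markers on every day 7 array and all 7 on every day 0 array. On liver arrays these counts were 4 on day 7 and 6 on day 0, and 4 of 7 neutrophil markers were above on every liver array of either day. By limma on day 0, 6 of 7 markers of each of these lists were lower in liver than in neutrophils and 1 was higher. Among the neutrophil markers that was LTF, at 2.10 ± 0.44 (log2 ± SE; adjusted p = 0.00224). Skeletal muscle markers differed between the liver days: all 9 were well above background on every day 7 array and 1 of 9 on every day 0 array, and their summed level ran from 2.20 to 4.26 on day 7, against -4.46 to -2.66 on day 0 (log2 of the summed signal relative to the array's 75th percentile).

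Each probe is a 60-base oligonucleotide. The 5 below are examples from the tissue comparison and not its 5 largest differences. MRPL23, MRPS18B and MRPS25 gave higher signals in liver, MRPL12 gave a small difference on day 0, and MRPL32 gave none that passed the test. All are 5′ to 3′ as deposited, and no genome coordinates are given because no build is stated in the sources used here.
MRPL23: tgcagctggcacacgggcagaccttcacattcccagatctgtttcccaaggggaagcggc
MRPS18B: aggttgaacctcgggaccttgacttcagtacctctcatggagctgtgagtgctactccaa
MRPS25: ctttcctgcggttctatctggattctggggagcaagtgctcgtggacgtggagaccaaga
MRPL12: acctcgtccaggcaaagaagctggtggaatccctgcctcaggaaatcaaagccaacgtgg
MRPL32: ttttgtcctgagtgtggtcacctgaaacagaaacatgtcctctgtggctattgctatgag

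The next 6 are identified by their first 30 bases: the 3 whose calls between the liver days were lost once a trend along the array's rows was removed (MRPS28, MRPL36 and MRPL49) and the 3 that gave no signal well above background on any of the 14 arrays (MRPL2, MRPL16 and MRPS7).
MRPS28: agctgtatctcccctccccctgtttttatg
MRPL36: ggagggctggatagccatctgtaggtcgca
MRPL49: tacttgctctgacctcaggcaaggtagtta
MRPL2: aaagagggaaaacaaggctgaagaggtggt
MRPL16: cctccaccgtactgattagaatgtatattt
MRPS7: aatttactgatcactgggtcttcaaacaca

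Of the 45 probes, 38 were well above background on all 14 arrays. MRPL2 and MRPL16, large-subunit proteins with bacterial homologues, and MRPS7, which binds the small-subunit rRNA, had only a bound in every group. MRPS33 was well above background on 1 of 3 liver arrays on day 7 and 3 of 3 on day 0, and on 0 of 4 neutrophil arrays on day 7 and 2 of 4 on day 0, at mean levels of -5.99, -6.34, -5.93 and -5.81 in that order of groups. Levels are log2 of the processed signal minus log2 of the array's 75th percentile, so 0 is the 75th percentile of that array. Levels of different probes are not compared with each other, because probes differ in how strongly they bind.

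Mitochondrial ribosomal protein transcripts were mostly higher in liver than in neutrophils. In bulk samples, fewer cells of a type and less RNA per cell cannot be told apart. On day 0, 42 of the 45 probes could be tested, since all arrays of 1 tissue or both measured them well above background. Liver was higher for 34 of them and lower for 5 at an adjusted p under 0.05 (limma, Benjamini-Hochberg over all 11494 probes tested). Over all probes, 39.7% were higher in liver and 43.4% lower, and 83.2% were called in either direction. The median difference, liver minus neutrophils, was 1.57 over the members and -0.12 over all probes tested (log2). Liver and neutrophil arrays did not overlap for 38 members, 33 with every liver array above every neutrophil array and 5 with every liver array below, against 39.2% and 43.3% of all probes. Among members well above background on every day 0 array, 34 were higher in liver and 4 lower, with a median of 1.63, against 32.6% and 49.8% of the 8755 such probes, whose median was -0.50.

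MRPL24, a large-subunit protein near the exit tunnel for new chains, showed the largest difference on day 0. Its level was 2.92, 2.67 and 3.07 in liver of animals 58, 61 and 66, against -0.82, -1.33, -0.89 and -0.59 in neutrophils of animals 25, 26, 32 and 34. All liver arrays were far above all neutrophil arrays, and the difference was 3.79 ± 0.21 (log2 ± SE; 13.9-fold; adjusted p = 6.41e-07). MRPL23, the homologue of the bacterial protein at the rim of the exit tunnel, was at 4.69, 4.37 and 4.58 in liver and at 1.57, 1.55, 1.28 and 1.52 in neutrophils. The groups were again well apart, by 3.07 ± 0.16 (8.39-fold; adjusted p = 4.3e-07).

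MRPL11 belongs to the base of the stalk that receives translation factors. It was at -0.76, -1.10 and -1.15 in liver against -4.28, -4.31, -4.02 and -3.89 in neutrophils. The difference was 3.12 ± 0.18 (8.72-fold; adjusted p = 8.79e-07), with no overlap. MRPL12, the stalk protein that contacts elongation factors, differed far less, at -1.41, -1.15 and -0.68 in liver against -1.79, -1.17, -2.11 and -1.90 in neutrophils. Animal 26 reached the liver values, and the difference was 0.66 ± 0.27 (1.58-fold; adjusted p = 0.0484), which did not pass once a trend along the rows of the array was removed (0.60 ± 0.27; adjusted p = 0.0634).

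The other large-subunit members among the 10 largest differences were MRPL48, MRPL35 and MRPL13, at 2.99 ± 0.24, 2.76 ± 0.24 and 2.54 ± 0.22. Of the small subunit, the leading member was MRPS18B, one of several mammalian relatives of bacterial S18. Its level was 0.16, -0.76 and -0.22 in liver and -3.02, -3.34, -3.02 and -2.98 in neutrophils, a difference of 2.82 ± 0.23 (7.04-fold; adjusted p = 7.33e-06). MRPS27, a pentatricopeptide repeat protein, followed at 2.56 ± 0.22. MRPS23, a mitochondria-specific protein, stood at 2.43 ± 0.19 and MRPS17, a homologue of bacterial S17, at 2.42 ± 0.20. For all of these, every liver array lay above every neutrophil array.

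Both subunits took part. In the large subunit 23 of 28 tested probes were higher in liver and 3 lower, with a median difference of 1.26. In the small subunit 10 of 13 were higher and 2 lower, with a median of 2.09. Members with a bacterial homologue were higher in liver in 22 of 28 cases and lower in 3 (median 1.76), and mitochondria-specific members in 11 of 13 cases and lower in 2 (median 1.34). The differences between these classes were not tested. MRPS36 was also higher in liver, by 1.20 ± 0.17.

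A few members went the other way on day 0. MRPL15, a large-subunit protein with a bacterial homologue, was at -2.04, -2.33 and -2.59 in liver against -0.92, -0.32, -0.88 and -0.39 in neutrophils. All liver arrays were lower, by -1.69 ± 0.23 (0.309-fold; adjusted p = 0.000138). MRPL38, mitochondria-specific, was at 1.96, 1.98 and 2.09 in liver against 3.05, 3.46, 3.13 and 2.82 in neutrophils (-1.11 ± 0.18; adjusted p = 0.00054). MRPL33, a small bacterial-type protein, was at -0.28, -0.46 and -0.51 in liver against 0.24, 0.54, 0.63 and 0.67 in neutrophils (-0.94 ± 0.17; adjusted p = 0.000823). Neither of these pairs of groups overlapped. MRPS33 was lower by -0.53 ± 0.19 (adjusted p = 0.0315) close to background. That call was lost with quantile normalization, with scaling to the probes measured on all arrays, and without animal 25, 26, 32, 58 or 61 (-0.55 to -0.28 over these settings), and normexp with quantile normalization gave 0.03.

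MRPS28, which corresponds to bacterial S1, had the most negative difference, at -0.44, -0.87 and -0.84 in liver and 2.21, 2.35, 2.19 and 2.19 in neutrophils on day 0. The difference was -2.95 ± 0.16 (0.129-fold; adjusted p = 6.68e-07). Its spot lies in row 1, the first of the array, where a trend along the rows ran through the liver arrays. In rows 1 to 16 the median difference over all probes was -1.01 on day 0, against -0.01 in the middle of the array, leaving out the first 40 and the last 40 rows. With a smooth trend along the rows removed from each array, MRPS28 stood at -0.94 ± 0.17 (adjusted p = 0.000817), and MRPS10, in row 10, moved to 1.16 ± 0.17 (adjusted p = 0.000189) from 0.06 ± 0.16 without the removal. With the trend removed, 34 members were higher and 6 lower, against 39.8% and 43.1% of all probes.

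MRPL32, MRPL47 and MRPS10 did not pass the test on day 0. MRPL32 carries a zinc-binding motif and is cleaved by the mitochondrial m-AAA protease before assembly into the ribosome. It was at -2.12, -1.76 and -1.45 in liver and -0.96, -1.93, -2.53 and -1.46 in neutrophils. The liver values lay within the neutrophil range, with a difference of -0.06 ± 0.36 (adjusted p = 0.884). With the row trend removed, MRPL32 was lower in liver, at -0.89 ± 0.34 (adjusted p = 0.0381). Its spot lies in row 77, in the middle of the array and away from the edges. The removal also lowered the difference for probes of other genes in nearby rows. CARS2 in row 72 went from 3.67 to 2.98, and CHCHD1 in row 73 from -1.66 to -2.39.

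**Figure D1:**
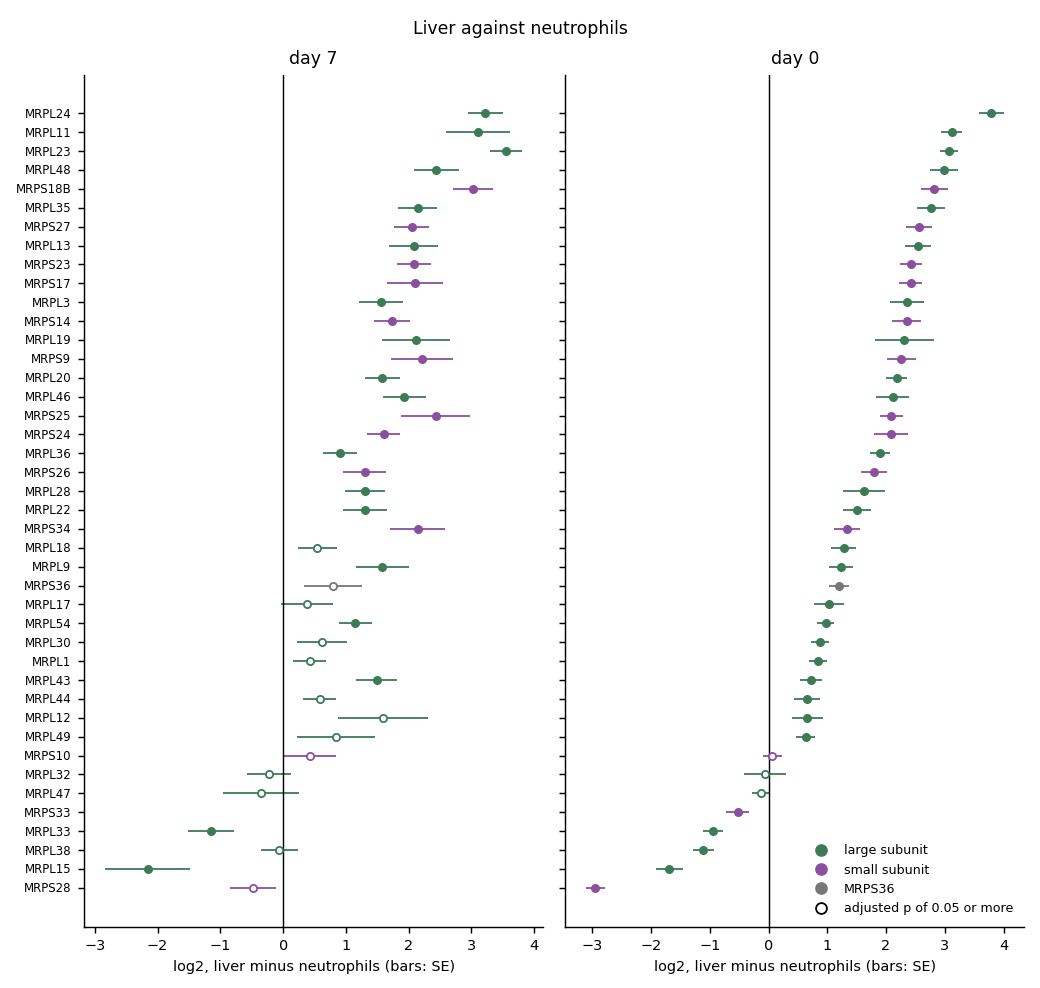
Difference between liver and neutrophils for each mitochondrial ribosomal protein probe on day 7 (left) and day 0 (right), as log2 of liver minus neutrophils on the x axis with the standard error of the limma fit as bars; filled points passed an adjusted p of 0.05. On day 0, 34 of 42 probes lie to the right and pass, led by MRPL24 at 3.79, and MRPS28 lies farthest left at -2.95.

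The day 7 arrays came from the same animals and are no independent repeat. Of 41 members tested, 26 were higher in liver and 2 lower, and the median difference was 1.56 against -0.03 over all probes. Over all probes, 34% were higher in liver and 35.1% lower. Among the 38 members well above background on every day 7 array, 24 were higher and 2 lower with a median of 1.40, against 26.1% and 38.0% of the 7261 such probes, whose median was -0.34. MRPL23 led with 3.55 ± 0.26 (11.7-fold; adjusted p = 4.7e-06), followed by MRPL24 at 3.22 ± 0.28, MRPL11 at 3.11 ± 0.51 (neutrophils well above background on 3 of 4 arrays), MRPS18B at 3.02 ± 0.32 and MRPL48 at 2.44 ± 0.36.

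MRPS25, a mitochondria-specific small-subunit protein, was at -0.33, -0.39 and -0.16 in liver on day 7 against -2.10, -1.80, -2.74 and -4.27 in neutrophils. The neutrophil array of animal 34 was the lowest, and the difference was 2.43 ± 0.55 (adjusted p = 0.00402). Completing the 10 largest on day 7 were MRPS9 at 2.21 ± 0.49 (again 3 of 4 neutrophil arrays), MRPL35 at 2.14 ± 0.31, MRPS34 at 2.14 ± 0.44 and MRPL19 at 2.11 ± 0.54. MRPL15 and MRPL33 were the members lower in liver on day 7, at -2.16 ± 0.68 (adjusted p = 0.0202) and -1.15 ± 0.37 (adjusted p = 0.0226). Neither call held when animal 61 or animal 66 was left out, and that of MRPL33 was also lost without animal 58. In MRPL15 the neutrophil arrays ran from -1.12 to 2.07, the last value being that of animal 34.

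**Figure D2:**
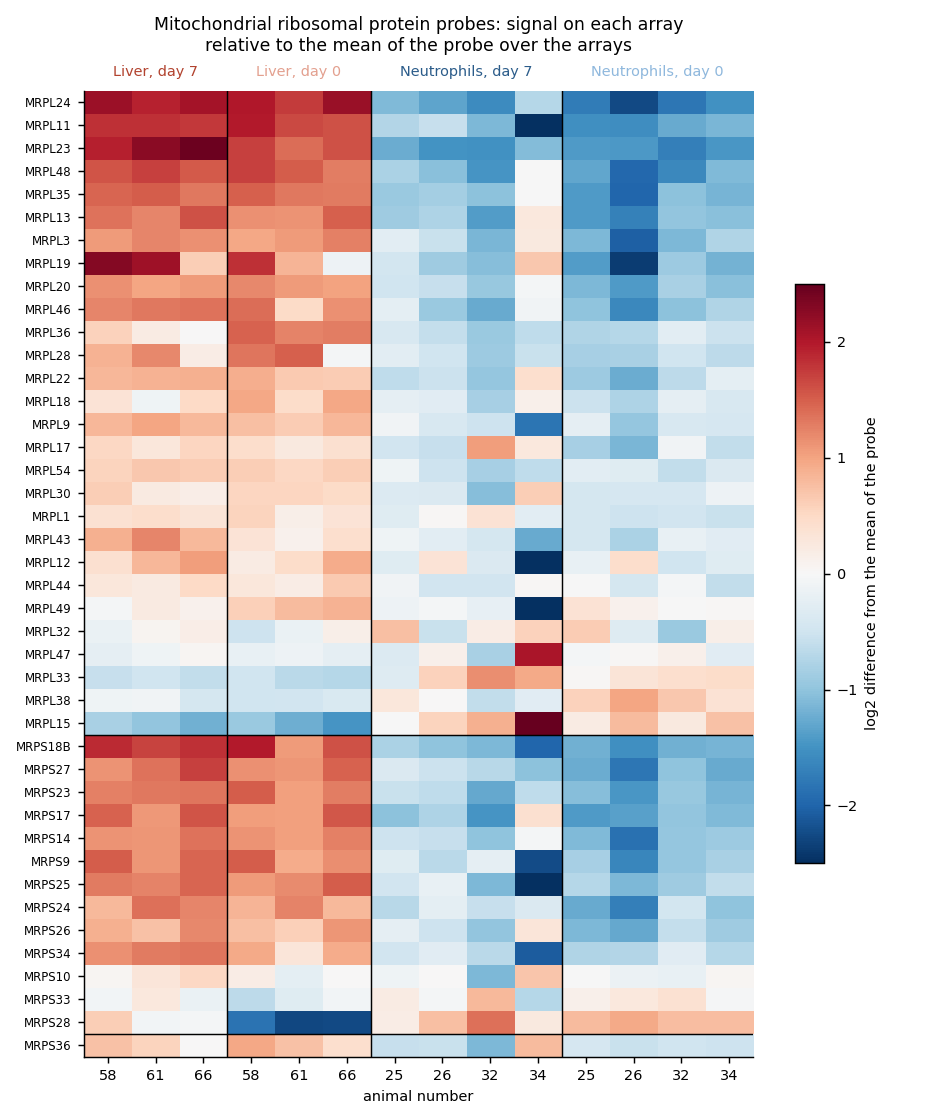
Signal of the 42 probes that were well above background on at least 1 array, shown for each array (columns, by animal number and group) as the log2 difference from that probe's mean over the 14 arrays, with colours ending at 2.5 in either direction. Rows are ordered within the large subunit, the small subunit and MRPS36 by the day 0 difference between tissues; the upper rows of each block are red in liver and blue in neutrophils, and the day 7 neutrophil array of animal 34 departs from the other 3 in both directions.

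The difference between tissues was set beside other proteins of mitochondrial translation, from lists of genes taken as 1 probe a gene. Over all probes tested on day 0, 39.7% were higher in liver and 43.4% lower. Among structural proteins of the ribosome that carry other names, GADD45GIP1 (2.85 ± 0.20) and PTCD3 (1.75 ± 0.25) were higher in liver on day 0, while CHCHD1 (-1.66 ± 0.22) and DAP3 (-1.45 ± 0.25) were lower. Of 4 translation factors tested, 3 were higher in liver: the elongation factors TUFM (2.91 ± 0.17) and TSFM (1.70 ± 0.17) and the initiation factor MTIF2 (1.29 ± 0.23). MTIF2 lies in row 6, and with the row trend removed it was at 2.76 ± 0.24. The release factor MTRF1L was lower (-0.52 ± 0.17), a call lost once the row trend was taken out (-0.40 ± 0.17; adjusted p = 0.0503).

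Of 7 genes that charge mitochondrial tRNAs, 4 were higher in liver on day 0 and 1 lower, from CARS2 at 3.67 ± 0.20, GATB at 2.30 ± 0.17 and IARS2 at 1.97 ± 0.20 to WARS2 at -1.38 ± 0.32. WARS2 lies in row 9, and with the row trend removed it was at -0.19 ± 0.31 (adjusted p = 0.579). VARS2, in row 72, went from -0.84 ± 0.38 (adjusted p = 0.0724) to -1.52 ± 0.38 (adjusted p = 0.0055) on that removal. With it, 5 of the 7 genes were higher and 1 lower. Of 11 ribosome assembly genes, 6 were higher and 4 lower without the removal, against 39.7% and 43.4% of all probes. The largest difference was that of TFB1M, an rRNA methyltransferase of the small subunit, which was lower at -9.39 ± 0.41. DHX30, an RNA helicase, was not well above background on any liver array on day 0 and was at least 4.49-fold higher in neutrophils than in liver. RPUSD4, a pseudouridine synthase, was higher at 3.28 ± 0.33 and MALSU1, an anti-association factor of the large subunit, at 2.57 ± 0.29. Of 6 genes for expression of mitochondrial DNA, 3 were higher, among them HSD17B10 at 5.76 ± 0.22, which is also an enzyme of fatty acid and steroid metabolism and a subunit of mitochondrial RNase P, and 1 was lower (POLG2, -1.69 ± 0.15).

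A further 19 probes were described as similar to mitochondrial ribosomal proteins but carried no MRPL or MRPS symbol in the form the choice of probes required. They were found after the values had been seen. On day 0, 39.7% of all probes were higher in liver and 43.4% lower. Of the 19 further probes, 15 were higher and 1 lower, with a median difference of 1.84. The exception was a probe described as S6, at -2.61. A second probe described as L17 was at 1.62, against 1.03 ± 0.25 for the LOC506989 probe. One described as L1 was at 2.26 (adjusted p = 0.0241), with neutrophils well above background on 1 of 4 arrays. The member MRPL1 had mean levels of -2.03 in liver and -2.87 in neutrophils on day 0.

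In liver, few members changed between day 7 and day 0, and those lay at the upper and lower edges of the array. Of 42 members tested, 1 rose (MRPS28, 2.38%) and 2 fell (MRPL36 and MRPL49) at an adjusted p under 0.05. Of all 10930 probes, 3.99% were called, 2.67% higher and 1.32% lower. At an unadjusted p under 0.05 there were 8 members (19.0%), against 17.9% of all probes. MRPS28 was at 2.02, 1.35 and 1.36 on day 7 and at -0.44, -0.87 and -0.84 on day 0 in animals 58, 61 and 66. The days did not overlap, and the change was 2.29 ± 0.11 (4.89-fold; adjusted p = 0.00696). Days that did not overlap were found in 4 members above and 2 below (9.52% and 4.76%), against 7.34% and 8.02% of all probes.

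MRPL36, a very small zinc-binding protein of the large subunit, was at 1.71, 1.34 and 1.15 on day 7 and at 2.62, 2.38 and 2.42 on day 0. All day 7 arrays were lower, by -1.07 ± 0.12 (0.475-fold; adjusted p = 0.0217). MRPL49, a mitochondria-specific protein, was at -1.36, -1.08 and -1.19 on day 7 and at -0.71, -0.51 and -0.44 on day 0, again without overlap (-0.66 ± 0.10; adjusted p = 0.0446). Leaving out animal 58 ended all 3 calls, and leaving out animal 61 or 66 ended those of MRPL36 and MRPL49. Calls were lost over the whole array in these fits. Of all 10930 probes, 0 were called without animal 58. Without animal 61, 0.924% were higher and 0.311% lower, and without animal 66, 1.40% and 0.531%.

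The spot of MRPS28 lies in row 1, that of MRPL49 in row 190 and that of MRPL36 in the last row. Over all probes the change between the days followed the rows: its median was 0.53 in rows 1 to 16, -0.04 in the middle rows and -0.38 in the last 16 rows. With the row trend removed, MRPS28 was at 1.02 ± 0.10 (adjusted p = 0.0667), MRPL36 at -0.20 ± 0.11 (adjusted p = 0.549) and MRPL49 at 0.10 ± 0.10 (adjusted p = 0.72). By limma 0 of the 42 members then passed, and 0.229% of all probes did. At an unadjusted p under 0.05 there were 7 members (16.7%), against 12.8% of all probes. The removal was incomplete at the outermost rows: it took 1.27 from MRPS28, while the median of all probes in row 1 was 1.83 before and 0.56 after. MRPS28 exceeded the median of its own row by 0.46, and MRPL36 and MRPL49 exceeded those of their rows by 0.24 and 0.26.

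**Figure D3:**
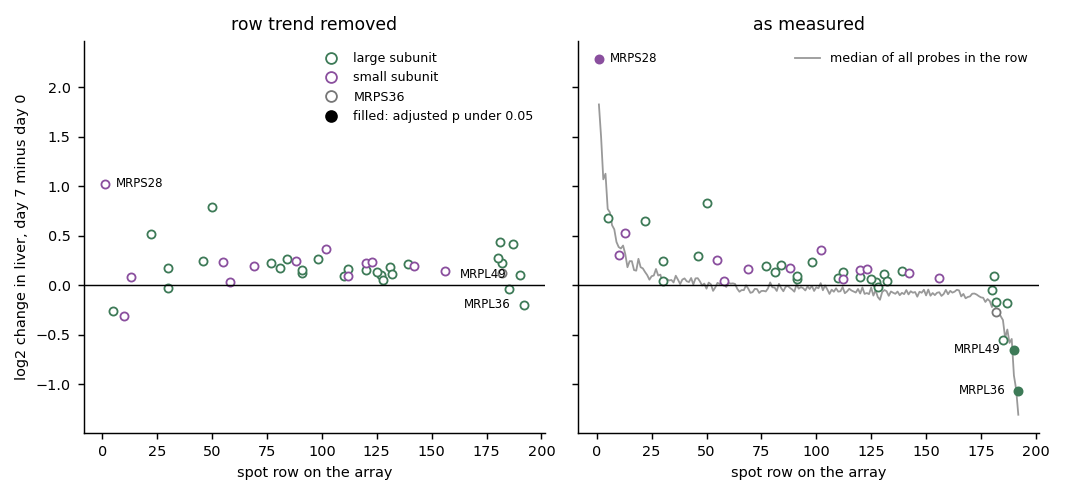
Log2 change of each member in liver, day 7 minus day 0 (y axis), against the row of its spot on the array (x axis), after removal of the row trend (left) and as measured (right, with the median of all probes in each row as a grey line). As measured, MRPS28 in row 1 and MRPL36 and MRPL49 in the last rows follow the grey line; with the trend removed no member passed an adjusted p of 0.05.

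Among the other members, the largest increases were MRPL19 at 0.83 ± 0.18, MRPL43 at 0.68 ± 0.17, MRPL23 at 0.65 ± 0.17 and MRPS34 at 0.53 ± 0.18, none of which passed (adjusted p = 0.0969, 0.137, 0.141 and 0.24). MRPL19, the homologue of the bacterial protein at the interface between the subunits, was at 1.58, 1.39 and -0.10 on day 7 and at 1.10, 0.12 and -0.85 on day 0. It was higher in each of the 3 animals, and the 2 days overlapped. With the row trend removed it was at 0.79 ± 0.16 (adjusted p = 0.198), whereas MRPL43, in row 5, was at -0.26 ± 0.17 and MRPS34, in row 13, at 0.08 ± 0.17.

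MRPL23 was at 4.93, 5.24 and 5.43 on day 7 and at 4.69, 4.37 and 4.58 on day 0. Every day 7 array lay above every day 0 array, as for 4 of the 42 members and 7.34% of all probes. With the row trend removed, MRPL23, in row 22, changed by 0.12, 0.67 and 0.77 in animals 58, 61 and 66. The largest decreases after those of MRPL36 and MRPL49 were MRPL18 at -0.55 ± 0.10 (adjusted p = 0.0676), MRPS36 at -0.27 ± 0.11 and MRPL30 at -0.18 ± 0.13, all in rows 182 to 187. MRPL18, which associates with 5S rRNA in other organisms, fell short of the threshold here but passed with 2 other settings. It was at -0.65 (adjusted p = 0.0211) after normexp background correction with quantile normalization. When only probes well above background on every array were tested, it was at -0.55 (adjusted p = 0.0419). With the row trend removed, the decrease was mostly lost: MRPL18 changed by -0.16, -0.02 and 0.06 in animals 58, 61 and 66.

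Averaged over the 3 liver animals, the change was above 0 for 34 of the 42 members (81.0%), against 42.9% of all probes tested. Its median was 0.12, against -0.04 over all probes. In the middle rows, without the first 40 and the last 40, 25 of 26 members were above 0 with a median of 0.13, against 39.6% of all probes with a median of -0.04. By limma 0 of these 26 members and 0 of all 6471 probes passed there, and 1 member and 631 probes had an unadjusted p under 0.05. By animal, the median change of the members was -0.01 in animal 58, 0.18 in animal 61 and 0.10 in animal 66, with 19, 35 and 29 members above 0. The median over all probes was -0.04, -0.02 and -0.02 in the same animals. Genes are not independent of each other within an array, and no test was made on these counts.

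The skeletal muscle markers moved with the day in the same liver arrays: all 9 were higher on day 7 by the test, and 7 of the 9 after removal of the row trend. MYH7, measured on every liver array, was higher by 5.15. The 5 with no day 0 liver signal well above background (MYL1, TNNC2, CKM, MB and MYH1) were at least 6.84-fold to 62.3-fold higher, taking each day 0 array at no less than its lowest signal well above background. The part of muscle RNA in the changes of the mitochondrial ribosomal proteins was not tested. Summed hepatocyte markers were at 8.99 to 9.20 on day 7 and at 8.65 to 8.87 on day 0.

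The other lists changed little in liver. Of the tRNA-charging genes, WARS2 (row 9) rose by 1.24 (adjusted p = 0.0152) and VARS2 by 0.66 (adjusted p = 0.0481), and with the row trend removed they were at 0.57 (adjusted p = 0.183) and 0.68 (adjusted p = 0.142). No gene of the structural, translation factor, assembly or mitochondrial DNA expression lists passed in liver. Among the 19 further ribosomal protein probes, the one described as L55 rose by 0.81 (adjusted p = 0.0268), and stood at 0.83 (adjusted p = 0.0786) without the row trend.

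In neutrophils no member passed the test between day 7 and day 0. Of 41 members tested, 0 were called by limma, as were 0 of all 9448 probes (0%). At an unadjusted p under 0.05, 8 of the 41 members (19.5%) were found, against 13.4% of all probes. That count varied with the animal left out, as did the share over all probes. It was 1 of 41 without animal 25 (5.94% of all probes) and 0 without animal 26 (7.28%). Without animal 32 it was 14 (20.1%), and without animal 34 it was 7 (14.1%). The change was above 0 for 30 members (73.2%), against 44.6% of all probes, with a median of 0.28 against -0.07.

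The animals differed in this. The median change of the members was 0.33 in animal 25, 0.54 in animal 26, -0.15 in animal 32 and 0.54 in animal 34, with 31, 31, 14 and 28 of the 41 members above 0. The medians over all probes were -0.14, -0.11, 0.09 and -0.12. Animals 25, 26 and 34 thus had members above the rest of the array, and animal 32 had them below. Without animal 34, whose day 7 array was the dimmest, the median over members was 0.23.

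**Figure D4:**
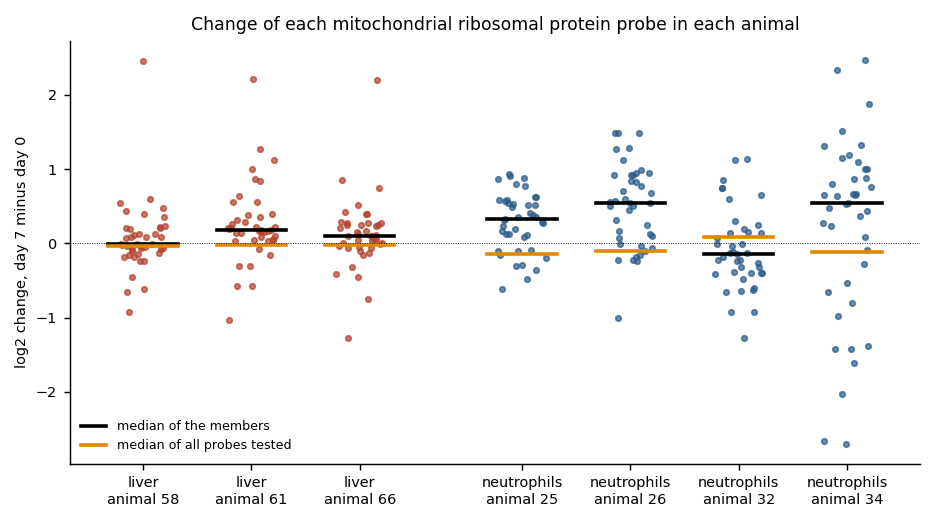
Log2 change, day 7 minus day 0 (y axis), of each member in each animal (x axis, 3 liver and 4 neutrophil animals); each point is 1 probe, black bars are the median of the members and orange bars the median of all probes tested. In neutrophils the black bar lies at 0.33, 0.54, -0.15 and 0.54 in animals 25, 26, 32 and 34, and the points of animal 34 spread most widely.

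The largest increases in neutrophils were MRPL19 at 1.04 ± 0.37, MRPL3 at 0.84 ± 0.30, MRPL17 at 0.73 ± 0.25, MRPL35 at 0.69 ± 0.29 and MRPS14 at 0.67 ± 0.29, with adjusted p from 0.329 to 0.373. MRPL48, MRPS27 and MRPL15 also stood at 0.67. MRPL19 was at -1.18, -1.61, -1.78 and -0.04 on day 7 and at -2.12, -3.10, -1.63 and -1.90 on day 0 in animals 25, 26, 32 and 34. It was higher in 3 of 4 animals, with animal 32 lower by -0.15, and the days overlapped. MRPL3, which lies beneath the peptidyl transferase centre in its bacterial counterpart, was at -2.34, -2.64, -3.22 and -1.83 on day 7 and at -3.21, -4.12, -3.21 and -2.83 on day 0, and animal 32 did not move. The MRPL17 probe of LOC506989 was higher on day 7 in all 4 animals, by 0.35, 0.57, 1.14 and 0.88.

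MRPL15 (adjusted p = 0.523) rested on animal 34. Its changes were -0.20, -0.24, 0.65 and 2.47 in animals 25, 26, 32 and 34. The same held for the decreases of MRPL49 (-0.87 ± 0.46) and MRPL12 (-0.69 ± 0.50), in which animal 34 changed by -2.67 and -2.71 and the other animals by -0.48 to -0.16 and by -0.11 to 0.15. MRPS25 (-0.27 ± 0.47) and MRPS34 (-0.26 ± 0.35) turned to 0.32 and 0.11 without animal 34.

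MRPL38 was the most evenly shared decrease. It was at 2.75, 2.47, 1.85 and 2.18 on day 7 and at 3.05, 3.46, 3.13 and 2.82 on day 0, lower in 4 of 4 animals. The days did not overlap, and the change was -0.81 ± 0.27 (adjusted p = 0.325). Groups that did not overlap were found in 1 member above and 2 below, against 4.89% and 4.52% of all probes.

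Summed T and NK cell markers were at 4.44 to 6.67 on day 7 and at 3.31 to 5.13 on day 0 in the neutrophil samples. GZMB alone was at 4.02 to 6.59 and at 2.93 to 4.97, a change of 1.31. CD3D, CD3E and CD3G changed by 0.49, 0.77 and 1.06, and CD2, CD5 and NKG7 by 0.06, 0.13 and -0.03. Summed B and plasma cell markers were at 1.91 to 2.89 on day 7 and at 0.93 to 1.79 on day 0. JCHAIN changed by 1.56, MS4A1 by 0.74 and CD79A by 0.38. By limma, 0 markers of these 2 lists passed. Summed neutrophil markers were at 8.85 to 10.11 on day 7 and at 9.17 to 9.53 on day 0. The 1 eosinophil marker, CCR3, was at -0.97 to -0.42 on day 7 and at 0.19 to 1.89 on day 0, without overlap (-1.55 ± 0.33; adjusted p = 0.298). The part of these other blood cells in the changes of the mitochondrial ribosomal proteins was not tested. None of the genes in the other mitochondrial translation lists passed in neutrophils, and 0 of 17 further ribosomal protein probes did.

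The liver and neutrophil changes were compared directly in 1 model. Of 41 members, only MRPS28 passed, with a liver change minus neutrophil change of 2.47 ± 0.34 (adjusted p = 0.0168), against 1.17% of all 8838 probes in either direction, 0.735% higher and 0.43% lower. MRPS28 was at 1.60, 2.17, 2.79 and 1.65 in neutrophils on day 7 and at 2.21, 2.35, 2.19 and 2.19 on day 0, a change of -0.18 ± 0.29. With the row trend removed the difference between tissues was 1.02 ± 0.33 (adjusted p = 0.294), and the call was also lost without animal 25, 26, 58, 61 or 66. In those fits without 1 animal, 0.124% to 0.294% of all probes were called higher. The median difference over members was -0.22, against 0.03 over all probes, and ranged from -0.47 without animal 32 to -0.15 without animal 34.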

How the data were processed

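RNA of 14 samples was hybridised to 1-colour Cy3 custom Agilent bovine arrays after low-input linear amplification, per the labels' protocols. The deposited scanner files hold processed signal as intensity, with spot flags (well above background, outlier, saturated), extracted with Agilent Feature Extraction 9.5.1.1 per the file headers. The authors' deposited value table holds log2 values that correlated at 1 with the values computed here and differed by a near-constant 0.00432 to 0.0132. Column medians were -3.55 to -2.69, and its direction, scale and centring are those of log2 of the signal over the 75th percentile.

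Values were log2 of the processed intensity minus log2 of the array's 75th percentile. Control and outlier spots were left out, and spots of 1 probe sequence were averaged. Tests took in a probe if all arrays of either group compared flagged it well above background. The comparison of the changes took in only probes that met this between the days in both tissues. limma 3.58.1 in R 4.3.3 was fitted on all such probes, with the animal as a block between days and in the comparison of the changes, and without it between tissues. Benjamini-Hochberg adjustment ran over all probes tested, at 0.05. Same-animal pairs come from the labels, and deviations of the pairs correlated at 0.0299 to 0.649. Animals are the replicates. Between days, p-values measure the spread of paired changes among 3 liver or 4 neutrophil animals. In the other comparisons they measure the spread among these 7 animals. The number of arrays limits the precision.

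The members and gene lists were chosen with earlier results of these data known. Members named between groups are those called and the largest changes in each direction. MRPL47 was moved to the bacterial-homologue class. Probes of prostaglandin synthases and of a claudin that shared a listed symbol were left out. The row trend was a loess curve (span 0.3) of row medians. Alternatives were other normalizations, other filters, removal of the row trend, no animal block and leaving out each animal. The fit was tested on simulated data.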

Additional observations from a re-analysis of the deposited data

Results flagged for a closer look

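In groups of 4 neutrophil samples, single animals stood apart from the others by Dixon's ratio in 6 of 79 groups tested, where chance gives about 5% of groups. On day 7, MRPL49 was at -3.94 in animal 34 against -1.50 to -1.35 in the others, and MRPS23 at -1.18 in animal 32 against -0.54 to -0.46. On day 0, MRPL30 was at 0.47 in animal 34 against 0.16 to 0.17, MRPS18B at -3.34 in animal 26 against -3.02 to -2.98, MRPS28 at 2.35 in animal 26 against 2.19 to 2.21, and MRPS34 at -0.22 in animal 32 against -0.70 to -0.65. The change of MRPS28 between the days differed between tissues, by 2.47 in liver minus neutrophils. Its spot lies in row 1, and the difference was 1.02 (adjusted p = 0.294) with the row trend removed.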

How the results depend on the processing

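With 3 and 4 animals and no untreated cattle, differences between days are read only within these animals, and tissue cannot be told apart from slide. Between the liver days, the count of members higher was 0 with no filter, with the row trend removed and in the middle rows alone, and 0 to 1 when each animal was left out. The count lower was 0 in the same 3 settings, 0 in each leave-one-out fit, and 1 without the animal block, where MRPL49 lost its call. The block changed the call of no other member. Over all probes, 0% were called with no filter, in the middle rows and without animal 58. With the row trend removed, 0.183% were higher and 0.0457% lower, and without the block 1.43% and 0.512%. Without animal 61 the shares were 0.924% and 0.311%, and without animal 66 they were 1.40% and 0.531%. With the row trend removed, MRPL49 turned to 0.10, MRPL43 to -0.26, MRPS36 to 0.12 and MRPL30 to 0.42. In neutrophils, MRPS25 ranged from -0.67 to 0.32 and MRPS34 from -0.50 to 0.11 over the leave-one-out fits, the positive values being those without animal 34, and the median change ranged from 0.23 to 0.35 over them. For the difference between the changes, the count higher was 0 with the row trend removed and 0 to 1 when each animal was left out, an alternative chosen after seeing the data. Over all probes, 0.0792% were higher with the row trend removed and 0.124% to 1.61% when each animal was left out. Between tissues on day 0, the member median was 1.82 when scaled to probes measured on all arrays (all probes 0.14, against -0.12), 1.80 with quantile normalization and 1.83 with the row trend removed. MRPS33 turned to 0.03 with normexp and quantile normalization. On day 7 the count lower in liver was 1 when scaled to probes measured on all arrays and 0 to 2 when each animal was left out. Over all probes, the share lower was 31.4% with that scaling and 30.8% to 39.3% when each animal was left out. The cause of these changes was not tested, beyond the settings' own construction. Averaging the probes of a gene was not run, since the choice of probes gave 1 for each member. The further probes described as L1 and L17 were kept apart. Members near background are limited by signal.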
